A study of Mus musculus with 9 samples.

Results

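Mast cell genes were followed in ulcer skin of rats. They were the 10 genes Cpa3, Cma1, Tpsab1, Tpsb2, Fcer1a, Ms4a2, Hdc, Hpgds, Kit and Gata2, found by gene name in a table of 30560 genes. Each had 1 row in that table, and all 10 passed the filter that left 15600 features for testing, a level of 0.5 FPKM or more in 3 or more libraries. FPKM, fragments per kilobase of transcript scaled to library size, allows for gene length, so levels of different genes can be set side by side.

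The 9 libraries came from whole ulcer skin taken on day 21, in 3 groups of 3. PRP-treated ulcers were those of diabetic animals that had 0.5 ml of platelet-rich plasma (PRP, plasma with concentrated platelets) injected at the wound on days 1, 7, 14 and 21. Diabetic ulcers and non-diabetic ulcers had saline in the same volume. The sources used here give no strain, age or sex, no method of inducing diabetes, and no statement that each library is a separate animal, so p-values measure the spread between these libraries. The labels name mouse as the organism, while the design describes rats and all 30560 gene identifiers are rat Ensembl identifiers.

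Mast cells are long-lived immune cells of connective tissue, common in the dermis around vessels and nerves. Their granules hold proteases, histamine and heparin, and they release these within moments when IgE bound to the high-affinity receptor on their surface is cross-linked by antigen. They depend on stem cell factor acting through the receptor Kit, and in skin wounds they are known for early release of mediators and for effects on vessels, fibroblasts and other immune cells.

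The libraries differed in more than their labels. Their FPKM summed to 702718 to 728332 in PRP-treated, 574588 to 676150 in diabetic and 564078 to 608331 in non-diabetic ulcers, and read totals are not given in the table. Epithelial markers, 13 genes taken as a mean log2(FPKM + 1), stood at 6.91 to 8.13 in PRP-treated, 6.67 to 8.96 in diabetic and 2.25 to 7.71 in non-diabetic ulcers, with non-diabetic replicates 1 and 3 lowest of all 9 at 5.52 and 2.25. Macrophage markers, 8 genes, summed to 732 to 1558 FPKM in PRP-treated, 237 to 1061 FPKM in diabetic and 1656 to 2353 FPKM in non-diabetic ulcers. The part of these differences in the results on mast cell genes was not tested, except where values without a library or with the epithelial level in the model are given.

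Markers that separate mast cells from their nearest relatives were checked first. The granule genes Cpa3 and Cma1 were measured in all 9 libraries, at 6.80 to 29.7 and 6.01 to 18.3 FPKM. Of the basophil markers, the basophil protease gene Prss34 was listed at 0 in 8 of 9 libraries and reached 0.0441 FPKM in diabetic replicate 1, and Il4 was listed at 0 in all 9. Itga2b, which platelets also express, was the highest of the basophil list, at 0.334 to 1.27 FPKM. The basophil markers Mcpt8 and Cd200r3 were not found by name in the deposited table, so the basophil check rests on 3 of 5 markers. Of the 5 eosinophil markers, Epx, the eosinophil peroxidase gene, stayed at or below 0.0408 FPKM, and the granule protein genes Prg2, Prg3 and Ear1 reached at most 0.222, 0.347 and 0.797 FPKM. The fifth, Siglec5, a surface receptor, was at 0.709 to 14.5 FPKM, so eosinophil markers did not all stand near 0. In whole tissue, fewer mast cells and less RNA per mast cell cannot be told apart.

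Diabetic ulcers were set against non-diabetic ulcers first. Of the 10 mast cell genes the IgE receptor gene Fcer1a was the only one that passed the test, and it was higher in diabetic ulcers. Of the 10 genes 8 had a log2 change above 0, as had 53.5% of all tested features, and their median log2 change was 0.54, beside 0.04 over all features. A gene was called at an adjusted p under 0.05 in limma-trend, fitted on log2(FPKM + 1) over all 9 libraries and adjusted by Benjamini and Hochberg over all 15600 features. By that rule 1 of 10 was called, and the background was 8.95% of all features, or 1.79% counting only those that were higher. In 4 of the 10, Cpa3, Fcer1a, Ms4a2 and Hpgds, every diabetic library lay above every non-diabetic library, and 14.4% of all features did so. Without adjustment 5 of the 10 had a p under 0.05, as had 34.7% of all features.

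**Figure D1:**
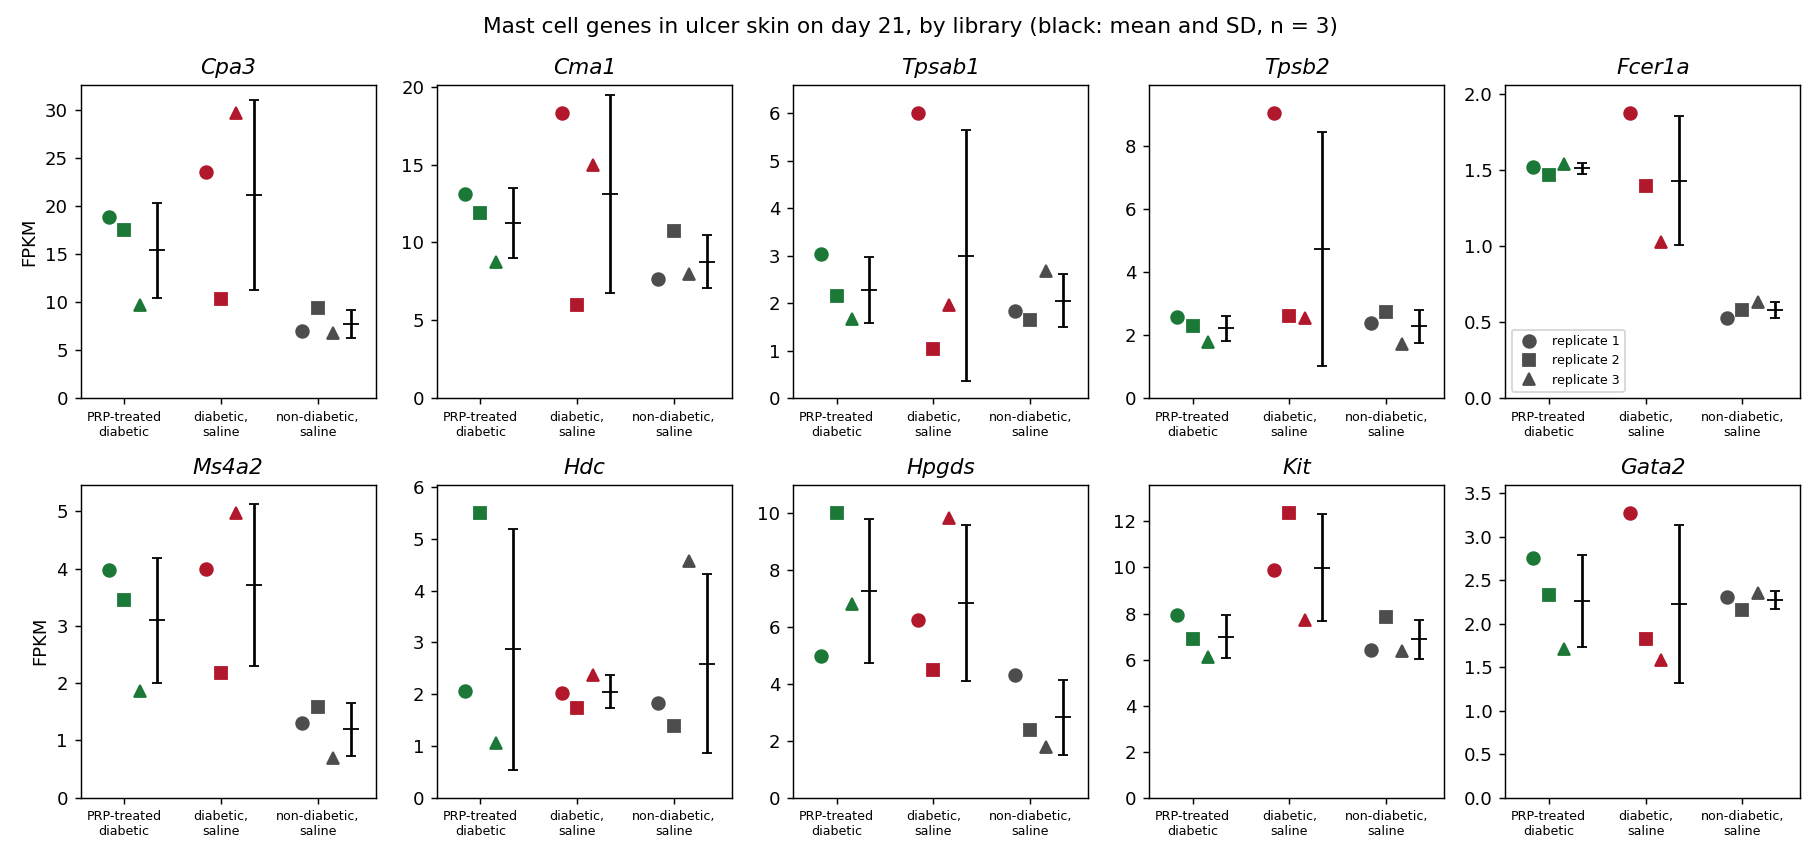
FPKM (vertical axes, each from 0) of the 10 mast cell genes in PRP-treated diabetic, diabetic and non-diabetic ulcers. Each point is a library, its shape gives the replicate number, and the black bar is the mean with its SD (n = 3). For Cpa3, Fcer1a, Ms4a2 and Hpgds all PRP-treated and diabetic libraries lie above the non-diabetic ones, and for Tpsab1 and Tpsb2 diabetic replicate 1 stands far above the rest.

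The granule proteases come first. Carboxypeptidase A3 (Cpa3, ENSRNOG00000011181, chromosome 2, 102712589 to 102744203, coordinates as the deposited table gives them, with the rat build not stated) trims peptides in the mast cell granule and is among the most mast cell-restricted transcripts known. Its mean over the 9 libraries, 14.8 FPKM, was the highest of the 10, although Cma1 exceeded it in all 3 non-diabetic libraries and Kit in diabetic replicate 2. It was at 18.9, 17.5 and 9.75 FPKM in PRP-treated, 23.6, 10.3 and 29.7 FPKM in diabetic and 7.00, 9.39 and 6.80 FPKM in non-diabetic ulcers (replicates 1 to 3 here and below). All 3 non-diabetic libraries were lower than all others, with PRP-treated replicate 3 and diabetic replicate 2 only just above them. Its mean was 21.2 ± 9.91 FPKM in diabetic and 7.73 ± 1.44 FPKM in non-diabetic ulcers (SD, n = 3 each), a ratio of 2.74, with a log2 change of 1.24 (SE 0.38, 95% interval 0.37 to 2.11) and an adjusted p of 0.0677 in limma.

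Chymase (Cma1, ENSRNOG00000020563, chromosome 15, 29417451 to 29420233) is a granule serine protease whose human counterpart cuts angiotensin I. It stood at 13.1, 11.9 and 8.77 FPKM in PRP-treated, 18.3, 6.01 and 15.0 FPKM in diabetic and 7.62, 10.8 and 7.96 FPKM in non-diabetic ulcers. The groups overlapped, since diabetic replicate 2 was the lowest library of all and diabetic replicates 1 and 3 the highest. The log2 change between diabetic and non-diabetic ulcers was 0.42 (SE 0.36, adjusted p = 0.419 in limma).

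The tryptases Tpsab1 (ENSRNOG00000024181, chromosome 10, 14360396 to 14362811) and Tpsb2 (ENSRNOG00000018611, chromosome 10, 14382013 to 14383569) are trypsin-like granule proteases whose genes lie 19.2 kb apart. They are close paralogs, so the split of reads between them is uncertain. Tpsab1 was at 3.04, 2.14 and 1.66 FPKM in PRP-treated, 5.996, 1.03 and 1.97 FPKM in diabetic and 1.84, 1.65 and 2.68 FPKM in non-diabetic ulcers. Diabetic replicate 1 was far above the rest and diabetic replicate 2 was the lowest library of all. Tpsb2 stood at 2.57, 2.30 and 1.77 FPKM in PRP-treated, 9.05, 2.62 and 2.55 FPKM in diabetic and 2.39, 2.72 and 1.72 FPKM in non-diabetic ulcers, so that the same library stood out while the other 8 lay within 1.72 to 2.72 FPKM. Neither differed between diabetic and non-diabetic ulcers beyond the spread (log2 changes 0.20 and 0.64, adjusted p = 0.745 and 0.248 in limma). Without diabetic replicate 1 the log2 changes were -0.30 for Tpsab1 and 0.14 for Tpsb2.

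The chains of the surface receptor for IgE come next. Fcer1a (ENSRNOG00000009177, chromosome 13, 85686092 to 85692351) encodes its alpha chain, which binds IgE. It was at 1.52, 1.47 and 1.54 FPKM in PRP-treated, 1.87, 1.40 and 1.02 FPKM in diabetic and 0.524, 0.581 and 0.632 FPKM in non-diabetic ulcers. The 3 non-diabetic libraries lay close together and well below the other 6. Its mean was 1.43 ± 0.425 FPKM in diabetic and 0.579 ± 0.0540 FPKM in non-diabetic ulcers (SD, n = 3 each), a ratio of 2.47, with a log2 change of 0.61 (SE 0.15, 95% interval 0.26 to 0.96, adjusted p = 0.0469 in limma), and the direction held in 3 of 3 diabetic libraries. The call was lost when any library other than non-diabetic replicate 2 was left out, with adjusted p-values of up to 0.159, while the log2 change stayed within 0.48 to 0.73. It was also lost under other settings, with adjusted p-values over all alternatives between 0.0165 and 0.755. The gene is low, and a log2(FPKM + 1) scale understates its change: with 0.1 in place of 1 the log2 change was 1.14 (adjusted p = 0.0467).

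Ms4a2 (ENSRNOG00000020993, chromosome 1, 208440361 to 208448310) encodes the beta chain of the same receptor, which amplifies its signal. It was at 3.97, 3.45 and 1.87 FPKM in PRP-treated, 3.99, 2.18 and 4.97 FPKM in diabetic and 1.31, 1.58 and 0.686 FPKM in non-diabetic ulcers. The non-diabetic libraries were again the 3 lowest. Diabetic ulcers averaged 3.71 ± 1.42 FPKM and non-diabetic ulcers 1.19 ± 0.460 FPKM (SD, n = 3 each), a ratio of 3.11 that was the highest of the 10 genes, with a log2 change of 1.08 (SE 0.30, adjusted p = 0.0566 in limma). Leaving out non-diabetic replicate 2 brought Ms4a2 past the threshold (adjusted p = 0.0407).

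Enzymes that make mediators did not move together. Hpgds (ENSRNOG00000006583, chromosome 4, 94373342 to 94397883) encodes hematopoietic prostaglandin D synthase, which makes prostaglandin D2 in mast cells and also in some macrophages and type 2 lymphocytes. It stood at 4.99, 10.01 and 6.80 FPKM in PRP-treated, 6.24, 4.48 and 9.84 FPKM in diabetic and 4.31, 2.38 and 1.80 FPKM in non-diabetic ulcers. The groups did not overlap, with non-diabetic replicate 1 just below diabetic replicate 2, and they did overlap once libraries were rescaled to the same total (TPM) or by median-of-ratios size factors. The ratio of means was 2.42, with a log2 change of 1.03 (SE 0.34, adjusted p = 0.0792 in limma). The macrophage markers were lower in diabetic than in non-diabetic ulcers, 8 of 8, with a median log2 change of -1.68. Of 5 T cell and innate lymphoid markers 4 had a log2 change below 0 and 1, Gata3, above it (1.87, adjusted p = 0.105 in limma). The part of these cells in the Hpgds level was not tested.

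Hdc (ENSRNOG00000010262, chromosome 3, 113847260 to 113865341) encodes histidine decarboxylase, which makes histamine in mast cells and basophils and can be switched on in neutrophils and macrophages. It was at 2.06, 5.49 and 1.06 FPKM in PRP-treated, 2.03, 1.73 and 2.38 FPKM in diabetic and 1.83, 1.38 and 4.57 FPKM in non-diabetic ulcers. PRP-treated replicate 2 and non-diabetic replicate 3 stood apart from the other 7 libraries. The summed FPKM of 6 neutrophil markers was 265, 6047 and 943 in PRP-treated, 89.0, 52.4 and 341 in diabetic and 1511, 61.0 and 697 in non-diabetic ulcers, so that PRP-treated replicate 2 was also highest in this sum, while non-diabetic replicate 1 and PRP-treated replicate 3 were high in it with Hdc at 1.83 and 1.06 FPKM. S100a8 and S100a9, at 2448 and 3566 FPKM in PRP-treated replicate 2, made up most of that sum. Taken as a mean log2(FPKM + 1) over the 6 markers, non-diabetic replicate 3 was highest at 6.01, with PRP-treated replicate 2 at 5.86 and non-diabetic replicate 1 at 5.66, and the other 4 markers (Csf3r, Cxcr2, Mmp9 and Clec4d) were each highest in non-diabetic replicate 3. The part of neutrophils in the Hdc level was not tested. Diabetic and non-diabetic ulcers did not differ in Hdc beyond the spread (log2 change -0.14, SE 0.44, adjusted p = 0.838 in limma).

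Kit (ENSRNOG00000002227, chromosome 14, 32548877 to 32624652) encodes the receptor for stem cell factor, which mast cells share with melanocytes. It was at 7.96, 6.91 and 6.12 FPKM in PRP-treated, 9.89, 12.4 and 7.72 FPKM in diabetic and 6.41, 7.84 and 6.37 FPKM in non-diabetic ulcers. Diabetic replicates 1 and 2 were highest, and replicate 2 was the diabetic library with least Cpa3, Cma1 and Ms4a2. The summed FPKM of 8 melanocyte markers was 43.4, 31.6 and 17.5 in PRP-treated, 68.4, 188 and 80.5 in diabetic and 30.2, 36.4 and 12.6 in non-diabetic ulcers, with the same library at the top. Of these 8 markers 4 were called higher in diabetic ulcers, beside 1.79% of all features, and 7 had a log2 change above 0, beside 53.5%. The part of these markers in the Kit level was not tested. The log2 change of Kit itself was 0.46 between diabetic and non-diabetic ulcers (SE 0.19, adjusted p = 0.121 in limma), and the groups overlapped. With median-of-ratios size factors, a scaling chosen after the data were seen, every diabetic library lay above every non-diabetic one in Kit. The same held for 15.4% of all features.

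Gata2 (ENSRNOG00000012347, chromosome 4, 120658986 to 120667761) encodes a transcription factor that mast cells need and that endothelial cells also express. It stood at 2.76, 2.33 and 1.70 FPKM in PRP-treated, 3.27, 1.82 and 1.59 FPKM in diabetic and 2.31, 2.16 and 2.35 FPKM in non-diabetic ulcers. The diabetic libraries spanned the values of all others, and the log2 change was -0.06 (95% interval -0.55 to 0.43, adjusted p = 0.866 in limma). Endothelial markers were lower in diabetic than in non-diabetic ulcers in 8 of 8 genes, with a median log2 change of -1.09.

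**Figure D2:**
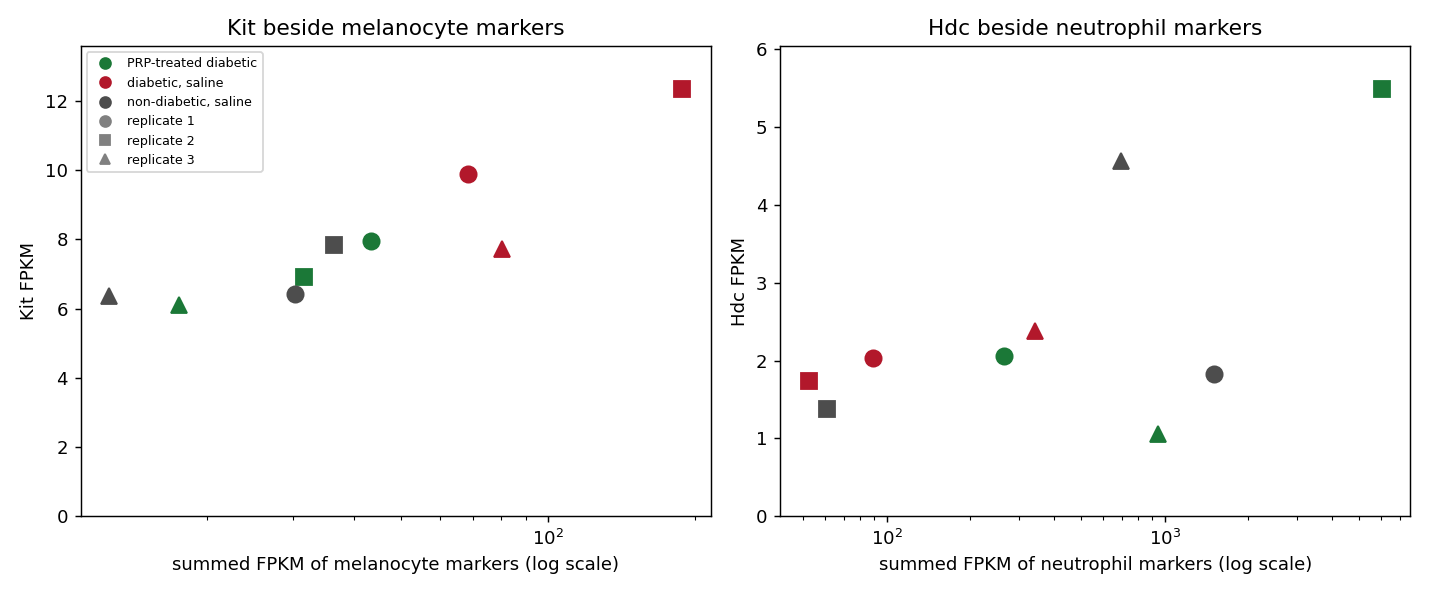
Kit beside the summed FPKM of 8 melanocyte markers (left) and Hdc beside the summed FPKM of 6 neutrophil markers (right), with a log scale on the horizontal axes. Each point is a library, coloured by group and shaped by replicate. The library with most Kit, diabetic replicate 2 at 12.4 FPKM, has the most melanocyte marker signal, and the library with most Hdc, PRP-treated replicate 2 at 5.49 FPKM, has the highest summed neutrophil marker FPKM, most of it S100a8 and S100a9.

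The next comparison asked whether platelet-rich plasma changed mast cell genes in diabetic ulcers, and it shares its diabetic libraries with the comparison above. No member was called, and 0 of the 15600 features were called in limma, 0% (1021 features, 6.54%, had an unadjusted p under 0.05). No member had groups that did not overlap, against 11.3% of all features. A log2 change above 0 was found for 4 of the 10 and for 41% of all features, and the median log2 change of the 10 genes was -0.10, beside -0.06 over all features. Cpa3 averaged 15.4 ± 4.94 FPKM in PRP-treated and 21.2 ± 9.91 FPKM in diabetic ulcers (SD, n = 3 each), with a log2 change of -0.37 and a 95% interval of -1.24 to 0.50, which spans 0 (adjusted p = 0.802 in limma). For Fcer1a the log2 change was 0.06 (95% interval -0.29 to 0.41), for Ms4a2 -0.19 (-0.88 to 0.50) and for Hpgds 0.09 (-0.69 to 0.86).

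Kit was the 1 member with an unadjusted p under 0.05 between PRP-treated and diabetic ulcers. Its mean was 6.99 ± 0.923 FPKM in PRP-treated and 9.99 ± 2.32 FPKM in diabetic ulcers (SD, n = 3 each), and the log2 change was -0.44 (SE 0.19, unadjusted p = 0.0440, adjusted p = 0.713 in limma), so it was not called. The groups overlapped, since PRP-treated replicate 1, at 7.96 FPKM, was above diabetic replicate 3, at 7.72 FPKM. Beside it, 8 of 8 melanocyte markers had a lower mean in PRP-treated ulcers on the log2 scale, with a median log2 change of -1.50, and 0 of them were called. Tpsb2 had the largest negative value, a log2 change of -0.66 (95% interval -1.52 to 0.20, adjusted p = 0.716 in limma). Without diabetic replicate 1 this log2 change was -0.17.

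PRP-treated ulcers were then set against non-diabetic ulcers, and this comparison shares its non-diabetic libraries with that of diabetic ulcers. Again Cpa3, Fcer1a, Ms4a2 and Hpgds had no overlap, with all 3 PRP-treated libraries higher, against 8.92% of all features. In limma 0 of the 10 were called, and the background was 0.00641%, 1 feature of 15600. Without adjustment 4 of the 10 had a p under 0.05, the same 4, as had 20.4% of all features. Fcer1a averaged 1.51 ± 0.0365 FPKM in PRP-treated and 0.579 ± 0.0540 FPKM in non-diabetic ulcers (SD, n = 3 each), with a log2 change of 0.67 (SE 0.15, unadjusted p = 0.00206, adjusted p = 0.154 in limma). Hpgds had a log2 change of 1.12 (adjusted p = 0.163), Ms4a2 of 0.89 (adjusted p = 0.183) and Cpa3 of 0.87 (adjusted p = 0.244). Kit, at 6.99 ± 0.923 FPKM in PRP-treated and 6.88 ± 0.837 FPKM in non-diabetic ulcers, had a log2 change of 0.02 with a 95% interval of -0.41 to 0.45.

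The FPKM of PRP-treated libraries summed to more than those of the others, and this bears on that comparison. When every library was rescaled to TPM, the median log2 change of all features went to -0.28 for PRP-treated against non-diabetic ulcers, as against -0.04 without rescaling. Fcer1a and Ms4a2 then still had no overlap and were higher in PRP-treated ulcers, as were 4.06% of all features, while Cpa3 and Hpgds overlapped. Kit was lower in every PRP-treated library than in every non-diabetic one, as were 39.9% of all features. The log2 changes on that scale were 0.65 for Fcer1a, 0.80 for Ms4a2, 0.63 for Cpa3 and 0.95 for Hpgds, each above the median shift.

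**Figure D3:**
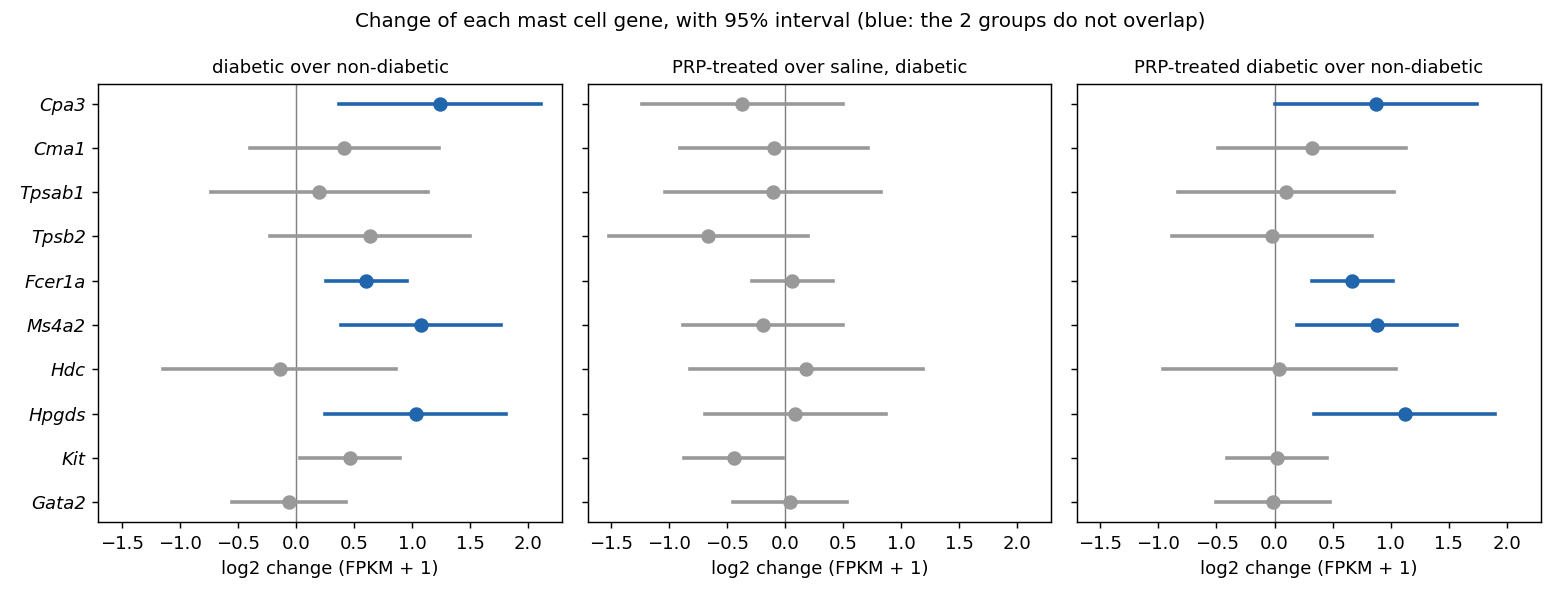
Log2 change of each of the 10 mast cell genes on the log2(FPKM + 1) scale (horizontal axis) in the 3 comparisons, with its 95% interval from limma. Blue marks genes whose libraries do not overlap between the groups. Cpa3, Fcer1a, Ms4a2 and Hpgds are blue in both comparisons with non-diabetic ulcers, at 0.61 to 1.24 in diabetic and 0.67 to 1.12 in PRP-treated ulcers, and no gene is blue between PRP-treated and diabetic ulcers.

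The 10 genes also differed in how they followed each other from library to library. Likeness to Cpa3 was measured as the root mean square difference between log2(FPKM + 1) values, each gene centred on its mean over the 9 libraries. By this measure Ms4a2 was closer to Cpa3 than any other tested feature, at 0.19, where the SD of Cpa3 itself was 0.72. Its FPKM was 0.101 to 0.211 of that of Cpa3 in every library, while both genes varied more than 4-fold (4.37-fold for Cpa3 and 7.24-fold for Ms4a2). Cma1 ranked 94th among the other tested features, at 0.38. Hpgds ranked 576th and Fcer1a 1393rd. Tpsb2, Tpsab1, Kit and Gata2 ranked between 2947th and 5441st, and Hdc, at 0.80, ranked 9682nd. The measure also grows where a gene varies less than Cpa3, and the SD was 0.35 for Fcer1a, 0.30 for Kit and 0.23 for Gata2. The libraries share their depth and tissue make-up, so likeness over 9 libraries is a description only.

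Within the diabetic group the library order itself differed between members. Diabetic replicate 3 held the most Cpa3, Ms4a2, Hdc and Hpgds of the 3 and the least Tpsb2, Fcer1a, Kit and Gata2. Diabetic replicate 1 held the most Cma1, Tpsab1, Tpsb2, Fcer1a and Gata2. The ratio of Kit to Cpa3 was 0.419, 1.20 and 0.260 in diabetic replicates 1 to 3, and 0.916, 0.835 and 0.938 in the non-diabetic ones. The ratio of Cma1 to Cpa3 was 0.693, 0.677 and 0.899 in PRP-treated, 0.775, 0.583 and 0.505 in diabetic and 1.09, 1.15 and 1.17 in non-diabetic ulcers, with every non-diabetic library above the other 6.

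Among genes outside the 10, with predicted and unnamed genes left out, the closest to Cpa3 was Mcpt1l1 (ENSRNOG00000053494, chromosome 15, 29903980 to 29906645). It is annotated as mast cell protease 1-like 1 and lies 483.7 kb from Cma1. It differed from Cpa3 by 0.22 on that measure. It was more abundant than any of the 10, at 72.6, 61.4 and 42.7 FPKM in PRP-treated, 87.0, 27.7 and 74.6 FPKM in diabetic and 23.9, 33.9 and 24.1 FPKM in non-diabetic ulcers. Diabetic replicate 2 fell among the non-diabetic libraries, and the log2 change between diabetic and non-diabetic ulcers was 1.05 (SE 0.41, adjusted p = 0.111 in limma). Between PRP-treated and non-diabetic ulcers the groups did not overlap (log2 change 1.07, adjusted p = 0.205). Reads shared with other members of its gene family make its level uncertain. The next closest were Gramd1c (0.25), Angptl7 (0.26), Fn3k (0.27), Cox7b (0.27), Cyp2b1 (0.28), Rora (0.28) and Nkain4 (0.30).

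**Figure D4:**
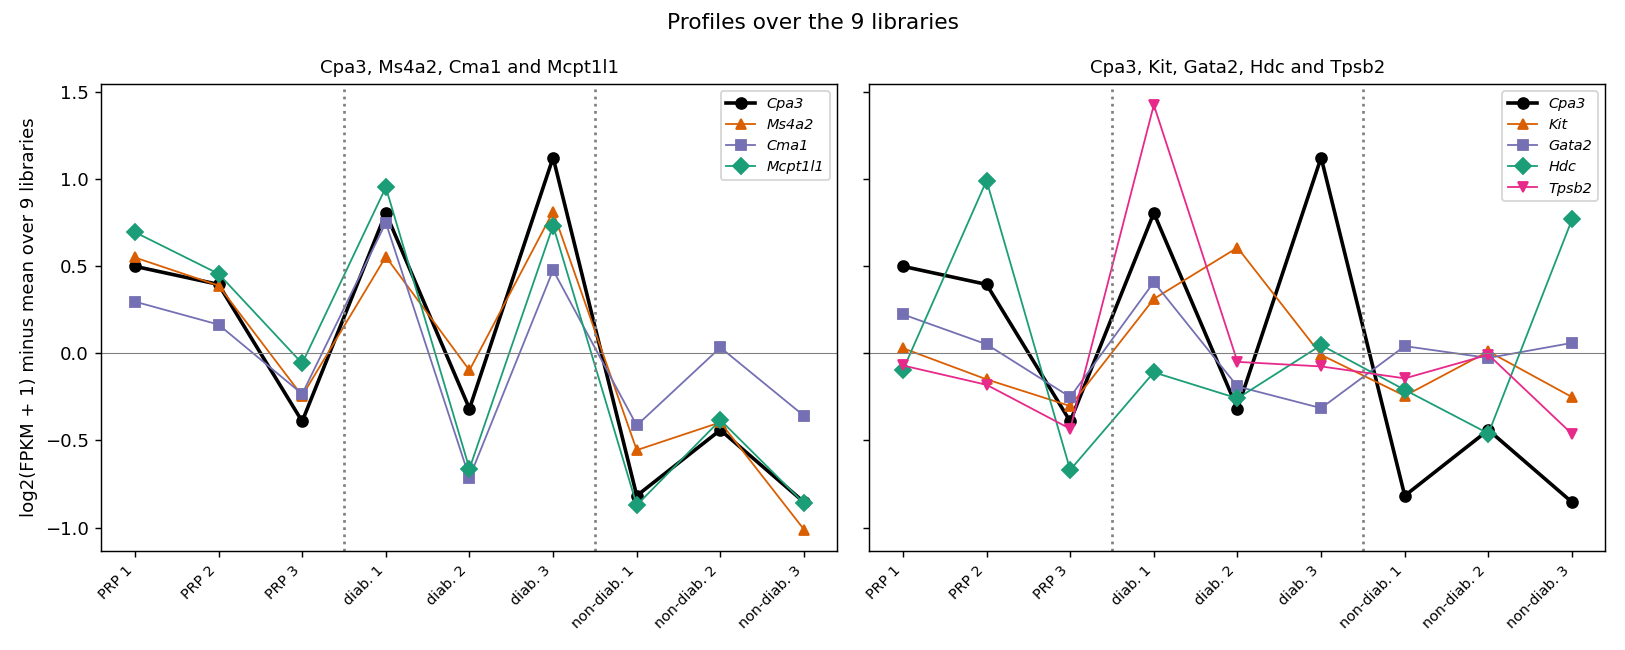
Log2(FPKM + 1) minus its mean over the 9 libraries (vertical axis) for each library (horizontal axis), with dotted lines between groups. On the left Ms4a2 stays closest to Cpa3 and Mcpt1l1 next. Cma1 lies above Cpa3 in the non-diabetic libraries and has its lowest value in diabetic replicate 2. On the right Kit peaks in diabetic replicate 2, Tpsb2 in diabetic replicate 1, and Hdc in PRP-treated replicate 2 and non-diabetic replicate 3, while Gata2 stays nearer 0.

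Other genes of mast cell biology were read from 7 lists. Calls in these lists and in the marker sets were all made between diabetic and non-diabetic ulcers, and 0 remained when PRP-treated replicate 1 or 2, diabetic replicate 2 or 3, or non-diabetic replicate 1 or 3 was left out. Of 17 further granule proteases of mast cells and basophils, 9 were in the table and 2 were tested, Mcpt1l1 and Mcpt9, of which 0 were called in any comparison. Mcpt9 was at 0.0623, 0.157 and 0.554 FPKM in PRP-treated, 0.519, 0 and 1.12 FPKM in diabetic and 0.104, 0.0411 and 0.812 FPKM in non-diabetic ulcers, with no order among the groups. Mcpt4, a connective tissue mast cell chymase in mice, reached at most 0.316 FPKM.

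Among 11 tested genes that carry the signal of the IgE receptor, 6 were called lower in diabetic than in non-diabetic ulcers and 0 higher, where the background for lower calls was 7.16% of all features. The 6 were the kinase genes Fyn, Lyn and Syk, the adaptor genes Lcp2 and Gab2, and Inpp5d, which encodes an inhibitory lipid phosphatase. Lyn fell to 6.43 ± 2.40 FPKM in diabetic ulcers, against 29.3 ± 12.3 FPKM in non-diabetic ulcers (SD, n = 3 each, log2 change -1.99, adjusted p = 0.0308 in limma), and Syk fell to 3.65 ± 0.812 FPKM in diabetic ulcers, against 8.77 ± 3.35 FPKM in non-diabetic ulcers (log2 change -1.03, adjusted p = 0.0415). The median log2 change of the 11 was -0.98. Macrophages and other leukocytes use the same genes, and macrophage markers were lower beside them, with 5 of 8 called lower (0 of 8 with median-of-ratios size factors, at a median log2 change of -1.70). Without non-diabetic replicates 1 and 3 the median of the 11 was -0.68. Without PRP-treated replicate 3 the count of the 11 called lower was 3, and the share of all features in that setting is not given here.

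Fcer1g, which encodes the gamma chain of the receptor and is shared with other Fc receptors of myeloid cells, was not among the 6 and was chosen after its values were seen. It stood at 43.0 ± 22.4 FPKM in PRP-treated, 58.9 ± 5.50 FPKM in diabetic and 45.6 ± 16.1 FPKM in non-diabetic ulcers, and the groups overlapped. Its log2 change between diabetic and non-diabetic ulcers was 0.41 (adjusted p = 0.415 in limma). Between PRP-treated and diabetic ulcers 0 of the 11 genes of the list were called and 8 had a log2 change above 0, with a median of 0.43.

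Of 11 tested genes for mast cell growth and transcription, 3 were called lower in diabetic than in non-diabetic ulcers and 0 higher, beside 7.16% and 1.79% of all features. They were Csf2rb, the shared beta chain of the IL-3, IL-5 and GM-CSF receptors (log2 change -2.62, adjusted p = 0.0372), the myeloid transcription factor gene Spi1 (-2.32, adjusted p = 0.0350) and Il1rl1, the receptor for IL-33 (-2.29, adjusted p = 0.0445 in limma). Il1rl1 was at 4.55, 3.06 and 10.1 FPKM in PRP-treated, 2.93, 2.27 and 2.67 FPKM in diabetic and 14.8, 7.29 and 41.2 FPKM in non-diabetic ulcers, with each diabetic library below all others. Kitlg, which encodes stem cell factor, the ligand of Kit, averaged 18.2 ± 2.82 FPKM in PRP-treated, 24.0 ± 2.01 FPKM in diabetic and 23.3 ± 2.97 FPKM in non-diabetic ulcers. Every PRP-treated library lay below every diabetic one in Kitlg, with a log2 change of -0.39 that was not called (adjusted p = 0.713 in limma). The cytokine genes Il4, Il5 and Il9 were listed at 0 in all 9 libraries.

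For granule contents and secretion 2 of 12 tested genes were called lower in diabetic ulcers, beside 7.16% of all features. They were Cd63, which marks granule membranes and other late endosomes in many cells (log2 change -1.23), and Ext1, which builds heparan sulfate chains (-1.27). Vamp8 and Stx4, which act in granule fusion, had log2 changes of 0.21 and 0.07 and were not called. Of the 12 genes, 6 had a log2 change above 0. In Slc18a2 and Tph1 every diabetic library lay above every non-diabetic one, which 14.4% of all features did. Slc18a2 averaged 0.693 ± 0.370 FPKM in diabetic and 0.290 ± 0.0943 FPKM in non-diabetic ulcers (SD, n = 3 each). For Tph1 the means were 0.960 ± 0.202 and 0.519 ± 0.193 FPKM, and neither gene was called. In 5 of the 12 every diabetic library lay below, as in 19.6% of all features. For eicosanoids 1 of 7 was called lower, which at this list size is near the background of 7.16% for lower calls. It was Alox5ap, which feeds leukotriene synthesis and fell to 9.05 ± 6.02 FPKM in diabetic ulcers, against 26.9 ± 2.25 FPKM in non-diabetic ulcers (log2 change -1.63, adjusted p = 0.0380 in limma). Ptgs2, Ptgs1 and Ltc4s, enzymes of prostaglandin and leukotriene synthesis, had log2 changes of -1.77, -0.30 and 0.24 and were not called.

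Of 6 further surface receptors, 3 were called lower in diabetic ulcers, beside 7.16% of all features, namely Cd200r1 (log2 change -1.63), Cd33 (-1.64) and Siglec8 (-2.20), whose human counterparts are inhibitory receptors that other leukocytes also carry. Cd34, a surface protein of progenitors, endothelium and mouse mast cells, had a log2 change of -1.25 and was not called (adjusted p = 0.0728 in limma). Among genes for histamine receptors and breakdown, Hrh1 alone was tested, with a log2 change of -0.46 (adjusted p = 0.111). Over all 7 lists 0 genes were called between PRP-treated and diabetic ulcers, and 0 between PRP-treated and non-diabetic ulcers. With non-diabetic replicates 1 and 3 left out, 0 features of the whole table were called between diabetic and non-diabetic ulcers, so that 0 of these lists held a call. Without diabetic replicate 1 the lower calls numbered 3 for granule contents, 2 for eicosanoids and 5 for surface receptors, and without non-diabetic replicate 2 they numbered 4, 2 and 4. The share of all features called in each of these settings is not given here, so these counts have no background beside them.

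**Figure D5:**
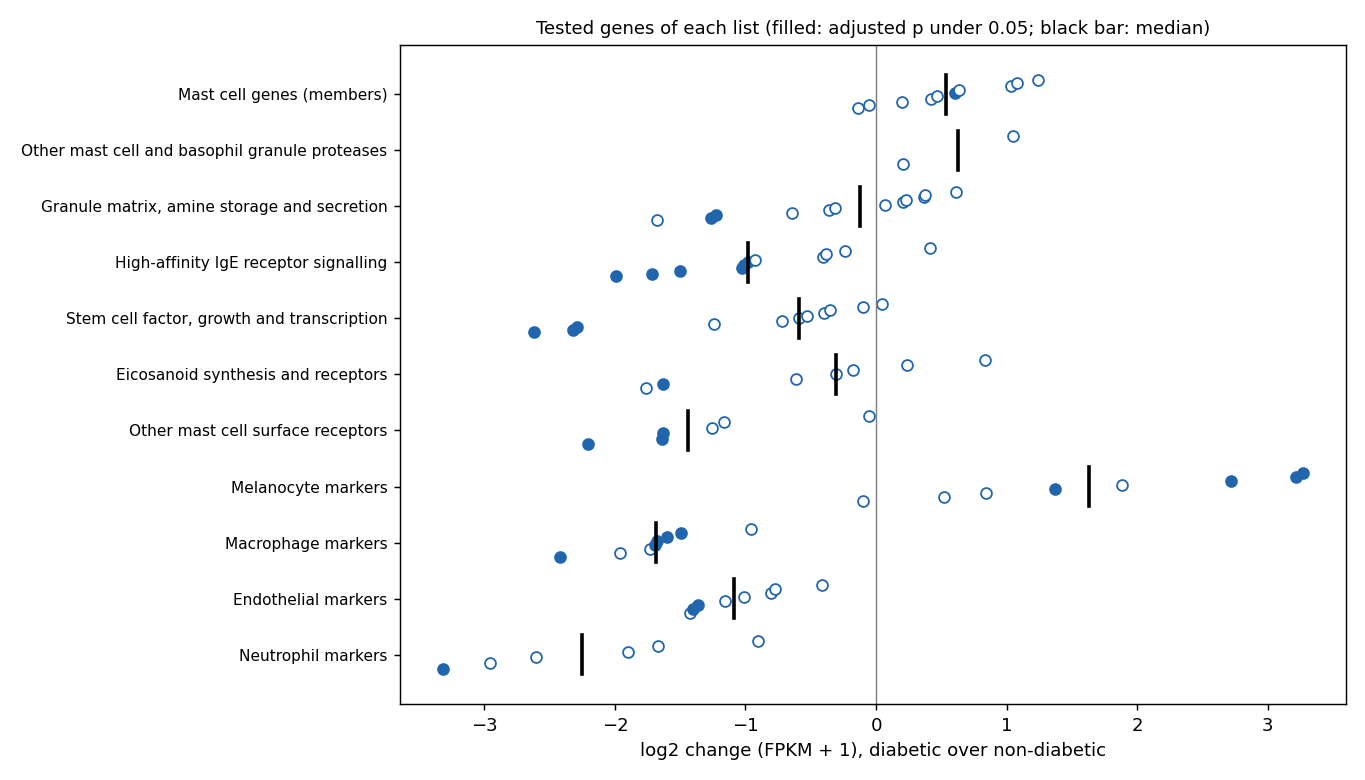
Log2 change on the log2(FPKM + 1) scale between diabetic and non-diabetic ulcers (horizontal axis) of each tested gene in the mast cell genes, 6 related lists and 4 sets of markers of other cell types. Filled points have an adjusted p under 0.05 in limma and black bars are medians. The mast cell genes have a median of 0.54, while genes of IgE receptor signalling (-0.98) and macrophage markers (-1.68) lie mostly below 0 and melanocyte markers (1.63) mostly above.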

How the data were processed

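The authors deposited FPKM per gene for 9 libraries, and the unit comes from the name of the deposited table. RNA was extracted and made into strand-specific libraries with commercial kits, per the labels' protocols. Per the submitters' processing notes, the tools were HISAT2, StringTie, FastQC and cutadapt, with no versions, and the build was GRCm39, a mouse assembly, although the gene identifiers are rat. No source used here gives a rat build, and no sequence is printed because the sequence tables at hand are of mouse. A deposited count table of 249 lncRNA genes holds 0 of the 10 genes and was not used.

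Rows of the same gene name were summed, which left the 10 genes as single rows. Features that reached 0.5 FPKM in 3 or more libraries were tested on log2(FPKM + 1) with limma-trend (limma 3.58.1, R 4.3.3), with group as the term, two-sided contrasts and Benjamini-Hochberg adjustment. Intervals are 95% intervals of that fit. FPKM scales each library by its own total, so a large change in abundant transcripts shifts all other genes. The members, lists and tests were chosen with earlier results of these data known. All 10 genes are named. Of each list the called genes are named, at most 6, and then those of highest mean level up to 4. The 8 genes most like Cpa3 leave out predicted genes. Mcpt4, Prss34, Itga2b, Slc18a2, Tph1, Gata3, the eosinophil and neutrophil markers and the interleukin genes at 0 were chosen after their values were seen.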

Additional observations from a re-analysis of the deposited data

How the results depend on the processing

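The comparisons were repeated with other settings, and the 10 genes gave 540 recomputed log2 changes, of which 47 changed sign. The 1 change called in the main fit, Fcer1a between diabetic and non-diabetic ulcers, was not among the 47. In diabetic against non-diabetic ulcers the log2 changes of Cpa3, Cma1, Tpsb2, Fcer1a, Ms4a2, Hpgds and Kit kept their sign in all 18 settings. Some of the 18 could not move these values: the replicate block, no filter, the 6 libraries compared alone, and a PRP-treated library left out. Only the other settings bear on the sign, and the 540 include such repeats in each comparison. The number of the 10 genes called there was 1, and 3 with sample weights (Cpa3, Fcer1a and Ms4a2), in which non-diabetic replicate 1 has a weight of 7.50. It was 0 with the replicate block, no filter, size factors, TPM, the 6 libraries compared alone, the epithelial level as a covariate, or non-diabetic replicates 1 and 3 both left out, and 0 to 2 with single libraries left out. For PRP-treated against non-diabetic ulcers it was 0, and 4 with the same sample weights. The share of all features called in that setting is not given here, so this count has no background beside it. Among all tested features 1396 were called for diabetic against non-diabetic ulcers, from 0 to 3501 with single libraries left out, 885 with size factors, 5607 with sample weights, and 0 with no filter, with the 6 libraries alone, with the covariate or without non-diabetic replicates 1 and 3. The cause was not tested.

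The number of mast cell genes whose groups did not overlap between PRP-treated and diabetic ulcers was 0. With TPM it was 2 (Tpsb2 and Kit) and with size factors 1 (Kit), all lower, on scalings chosen after the data were seen. Of all features, 18.5% had every PRP-treated library below every diabetic one with TPM, and 5.25% with size factors. The median log2 change of all features was -0.22 with TPM in that comparison. Fcer1a (-0.064), Hpgds (-0.082) and Gata2 (-0.10) changed sign with TPM there. For PRP-treated against non-diabetic ulcers, TPM gave -0.11 for Tpsab1, -0.18 for Hdc and -0.24 for Kit, size factors gave 0.011 for Tpsb2 and 0.015 for Gata2, the covariate gave 0.062 for Tpsb2, -0.10 for Kit and 0.10 for Gata2, and leaving out non-diabetic replicates 1 and 3 gave -0.15 for Kit and 0.035 for Gata2. For diabetic against non-diabetic ulcers Hdc stood at 0.063 with sample weights, 0.29 with the covariate and 0.35 without those 2 libraries, and Gata2 at 0.079 with the covariate.

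With single libraries left out the log2 changes that crossed 0 ranged as follows. For diabetic against non-diabetic ulcers they ran from -0.30 to 0.59 for Tpsab1, -0.39 to 0.23 for Hdc and -0.28 to 0.084 for Gata2. For PRP-treated against diabetic ulcers they ran from -0.54 to 0.19 for Cma1, -0.49 to 0.40 for Tpsab1, -0.064 to 0.19 for Fcer1a, -0.45 to 0.046 for Ms4a2, -0.28 to 0.55 for Hdc, -0.14 to 0.35 for Hpgds and -0.10 to 0.26 for Gata2. For PRP-treated against non-diabetic ulcers they ran from -0.063 to 0.24 for Tpsab1, -0.15 to 0.080 for Tpsb2, -0.42 to 0.41 for Hdc, -0.065 to 0.11 for Kit and -0.12 to 0.11 for Gata2.

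The replicate numbers are in the labels, which do not say whether they pair the libraries. Deviations of same-numbered libraries correlated between -0.41 and 0.35 over features, and those of differently numbered libraries between -0.44 and 0.55. With 3 libraries per group this shows no sign of pairing but cannot exclude it. With the replicate block 0 of the 10 genes were called in each comparison, and the adjusted p of Fcer1a was 0.0685. Summing rows of a name changed nothing for the 10 genes, which have 1 row each, so the largest row alone was not run. Low genes such as Fcer1a rest on few fragments whose number is not given in the table, so their counting error is unknown.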
